A study of Mus musculus with 342 samples.

Results

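The cytosolic ribosomal protein genes were described in the livers of male Collaborative Cross mice, recombinant inbred lines bred from genetically diverse founders. Members were taken by gene symbol, as Rpl or Rps followed by a number, or as Rplp0, Rplp1, Rplp2 or Rpsa. The symbols chose 26 of the 9093 genes tested, 17 of the large and 9 of the small subunit. Rplp2 was the only one of the 4 separately listed genes among the members, and the other three are not analysed here.

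The first group was 171 male mice given 1 oral dose of TAK-875 at 600 mg/kg, and the second was 171 male mice given the vehicle alone, at 0 mg/kg. Vehicle was 0.5% methylcellulose in water, both were gavaged at 10 ml/kg, and the mice were about 8 to 10 weeks old after about 7 days of acclimation. TAK-875, also called fasiglifam, activates GPR40, a receptor for fatty acids. The series title gives another compound number than the sample labels, and the labels were followed here. Livers were taken 24 hours after dosing, so the data hold 1 dose, 1 time and 1 sex. Each of 171 study pairs held 1 TAK-875 mouse and 1 vehicle mouse of the same line, with 4 pairs in 39 lines and 3 pairs in 5 lines. Values are log2 expression from 1 microarray per mouse, and the number of arrays limits their precision.

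Ribosomal proteins assemble with ribosomal RNA in the nucleolus into the small subunit, which decodes the mRNA, and the large subunit, which joins the amino acids. Their mRNAs are among the most abundant in liver. Nearly all begin with a terminal oligopyrimidine (TOP) tract, a run of C and T that starts with a C at the first base of the mRNA, through which the kinase complex mTORC1 sets their translation. A change in translation through that tract need not change the mRNA level, which is what an array measures.

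The start regions of 4 members that lead the results below are shown because the TOP tract lies there. Each sequence runs 5′ to 3′ from 20 bases before the annotated start to 20 bases from it onward (RefSeq, build GRCm38.p6), and capitals mark the longest run of C and T.
Rplp2 (chr7:141447631-141447670, plus strand): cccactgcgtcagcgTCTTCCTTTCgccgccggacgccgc
Rpl23 (chr11:97782420-97782459, minus strand): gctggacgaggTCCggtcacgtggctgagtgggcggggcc
Rpl7l1 (chr17:46782637-46782676, minus strand): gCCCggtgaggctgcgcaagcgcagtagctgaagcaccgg
Rpl14 (chr9:120571497-120571536, plus strand): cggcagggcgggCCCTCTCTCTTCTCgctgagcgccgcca
The run was 10 bases long in Rplp2 and 14 in Rpl14, and in both it spans the annotated start. Rpl23 and Rpl7l1 had no run longer than 3 bases in this window.

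Start regions were listed for 22 of the 26 members. A run of at least 8 C or T bases lay in the window of 12 of them (54.5%), against 18.9% of the 7421 tested genes with a listed start. A stricter match, a C at the annotated start followed by at least 4 C or T bases, was found in 4 members (18.2%), namely Rplp2, Rpl14, Rpl15 and Rps21, and in 2.86% of the tested genes. Both searches read the transcribed strand only. A start annotated some bases away from the true one hides the tract, so these shares describe the annotated windows.

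Several facts of the arrays bear on what follows. Array medians lay between 5.40 and 6.22, while the 90th percentiles lay between 8.99 and 9.31, so each result was also computed with arrays centred on their medians. For each array, the median of its correlations with the other arrays of the same line and treatment was taken. The lowest 5% of arrays by this value, 17 in 12 lines, were counted as standing apart, 11 of them TAK-875 and 6 vehicle arrays. Their correlations were 0.82 to 0.95, against a median of 0.98 over all arrays. Results were repeated without the 17 pairs that hold these arrays, which leaves 42 lines. Of 11 hepatocyte markers, 10 lay at or above the 98th percentile of level, as the tissue label says.

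The members fell into a bright and a dim set on these arrays. Of the 26, 14 had a mean level above 8, from 8.74 to 12.10, and 12 lay below, from 2.62 to 7.73. Rpl23, Rplp2, Rpl13a, Rps21, Rps16 and Rps9 stood at or above the 98th percentile of all tested genes, and 11 members stood above the 90th percentile. Rpl17 (2.62), Rps24 (3.23) and Rpl39 (3.66) were the dimmest, and 7 members lay below the 25th percentile. Levels of different probe sets are not comparable per length, so this order describes the probe sets rather than the mRNAs.

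The probe sets themselves differ in what they can bind. Only 10 members were read by a probe set of the plain class. Another 7 were read by a set that can bind several transcripts of 1 gene, 2 by a set shared by a family, and 7 by a set that can bind unrelated transcripts. Ribosomal protein genes have many processed pseudogenes, so signal of a gene and of its copies cannot be told apart in these sets.

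Over all lines, few of the 26 measured members differed between TAK-875 and vehicle mice, and each difference was small. In limma's test of the 44 line differences, 2 of 26 members rose, Rplp2 and Rpl23, and 1 fell, Rpl7l1, at an adjusted p under 0.05. That is 11.5% of the members, against 27.1% of all genes tested. Over all genes, 15.3% rose and 11.9% fell. No member moved by more than 0.10 on the log2 scale. The median difference, TAK-875 minus vehicle, was 0.0085 over the members and 0.0056 over all genes, and 16 members lay above 0 and 10 below. These values pool bright and dim members. The 3 calls all fell on the 14 bright members, whose median was 0.0369, with 10 above 0. The 12 dim members had a median of -0.0094, with 6 above 0. With the dimmest 25% of genes left out, 4 of 19 members were called, against 33.4% of all genes. In whole liver, fewer cells of a type and less RNA per cell cannot be told apart.

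Rplp2 encodes P2, an acidic protein of the ribosomal stalk, where the elongation factors bind. Its level ran from 11.38 through a median of 11.98 to 12.39 in TAK-875 mice, against 11.30, 11.92 and 12.33 in vehicle mice. The groups overlapped over nearly their whole ranges, with the TAK-875 arrays shifted slightly upward. Paired within lines, Rplp2 rose by 0.08 ± 0.11 (SD, n = 44 lines, limma adjusted p = 0.000152), a 5.88% higher level, and was higher in 35 of 44 lines. Rplp2 was also called with centred arrays (0.07, adjusted p = 0.0376), and without the pairs that stand apart (0.09, adjusted p = 8.92e-05).

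Rpl23, a large subunit protein that also binds the p53 regulator MDM2, was the brightest member. Its level ran from 11.60 through 12.13 to 12.46 in TAK-875 mice, against 11.59, 12.11 and 12.51 in vehicle mice. Rpl23 rose by 0.05 ± 0.10 (SD, n = 44 lines, limma adjusted p = 0.0138) and was higher in 31 lines. The call was lost with centred arrays (0.03, adjusted p = 0.132) and without strain pair 1 (0.04, adjusted p = 0.0849). Of its other probe sets, one nearly as bright differed by 0.03 (adjusted p = 0.186) and a dim one by 0.00071 (adjusted p = 0.990).

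Rpl7l1, a paralog of Rpl7, was the only member that fell. Its level ran from 6.52 through 8.73 to 9.77 in TAK-875 mice, against 7.90, 8.75 and 9.66 in vehicle mice. The medians nearly coincide, and the difference lies in the low tail. There, 5 TAK-875 arrays lay below the lowest vehicle array, and all 5 are among the arrays that stand apart. The mean over lines was -0.08 ± 0.20 (SD, n = 44 lines, limma adjusted p = 0.0456), lower in 29 lines. Without the pairs that stand apart it was -0.01 (adjusted p = 0.787), with 19 of 42 lines higher. The call was also lost without strain pair 1 (-0.07, adjusted p = 0.121) and without strain pair 4 (-0.05, adjusted p = 0.289). With single mice as the unit and no pair block it was lost too (-0.07, adjusted p = 0.0661). The gene's other probe sets differed by 0.01 (adjusted p = 0.766) and 0.08 (adjusted p = 0.102), so the fall was seen by 1 of its 3 probe sets.

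**Figure D1:**
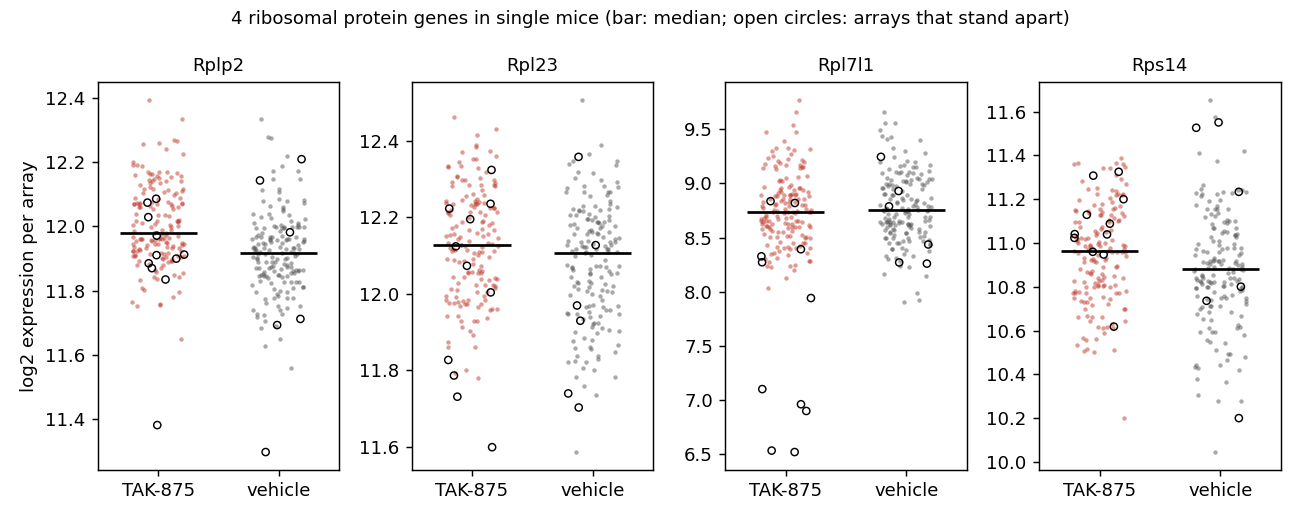
Log2 expression of Rplp2, Rpl23, Rpl7l1 and Rps14 in each of 171 TAK-875 and 171 vehicle mice, with a bar at the group median and open circles for the 17 arrays that stand apart. The groups overlap in every panel, and the 5 TAK-875 arrays below all vehicle arrays of Rpl7l1 are open circles.

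The remaining bright large subunit members did not pass the test. Rpl4, which lines the exit tunnel for the new peptide, ran from 9.78 through 10.95 to 11.44 in TAK-875 mice, against 9.49, 10.87 and 11.50 in vehicle mice. Its mean difference was 0.07 ± 0.21 (SD, n = 44 lines, adjusted p = 0.0662). Rpl8 differed by 0.04 (adjusted p = 0.0734), Rpl3, near the peptidyl transferase centre, by 0.04 (adjusted p = 0.227) and Rpl13a by 0.03 (adjusted p = 0.174). Rpl41, which encodes a very short protein, differed by -0.0067 (adjusted p = 0.871). Without the pairs that stand apart, Rpl3 (0.07, adjusted p = 0.00547), Rpl4 (0.08, adjusted p = 0.0468) and Rpl8 (0.04, adjusted p = 0.0293) passed the test.

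The dim large subunit members spread widely around 0. The lowest means were those of Rpl14, at -0.09 ± 0.29 (SD, n = 44 lines, adjusted p = 0.101), and Rpl27a, at -0.10 ± 0.53 (adjusted p = 0.370). Rpl15, Rpl17 and Rpl31 lay at -0.07, -0.07 and -0.06, and Rpl37a, Rpl39, Rpl22 and Rpl37 at 0.07, 0.03, 0.01 and 0.0024. None of these passed the test. The SD over lines was 0.23 to 0.55 in the 12 dim members and 0.10 to 0.21 in the 14 bright ones.

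No small subunit member passed limma's adjusted test on the mean over lines, and 3 of 9 had an unadjusted p under 0.05. Rps14, whose human counterpart lies in the segment lost in 5q- syndrome, was nearest. It ran from 10.20 through 10.96 to 11.39 in TAK-875 mice, against 10.05, 10.88 and 11.65 in vehicle mice. Its mean difference was 0.07 ± 0.19 (SD, n = 44 lines, adjusted p = 0.0565), higher in 32 lines. Rps9 differed by 0.05 (adjusted p = 0.0751), and Rps27l, a p53-responsive paralog of Rps27, by -0.04 (adjusted p = 0.0735, lower in 29 lines). Rps12 lay at 0.05, Rps16 at 0.0092, Rps15 at 0.0078, Rps24 at 0.0027, Rps21 at -0.02 and Rps13 at -0.02, with adjusted p-values from 0.340 to 0.986.

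The scale of the test matters for these small shifts. With arrays centred on their medians, 1 member rose (Rplp2) and 1 fell (Rpl7l1), against 26.2% of all genes called, and the medians became -0.0063 over the members and -0.0092 over all genes. Of the members, 11 then lay above 0 and 15 below. With the 171 study pairs as the unit, 6 members rose, adding Rpl4, Rpl8, Rps14 and Rps9, and 3 fell, Rpl7l1, Rps27l and Rpl14, but 33.7% of all genes were called in that fit.

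**Figure D2:**
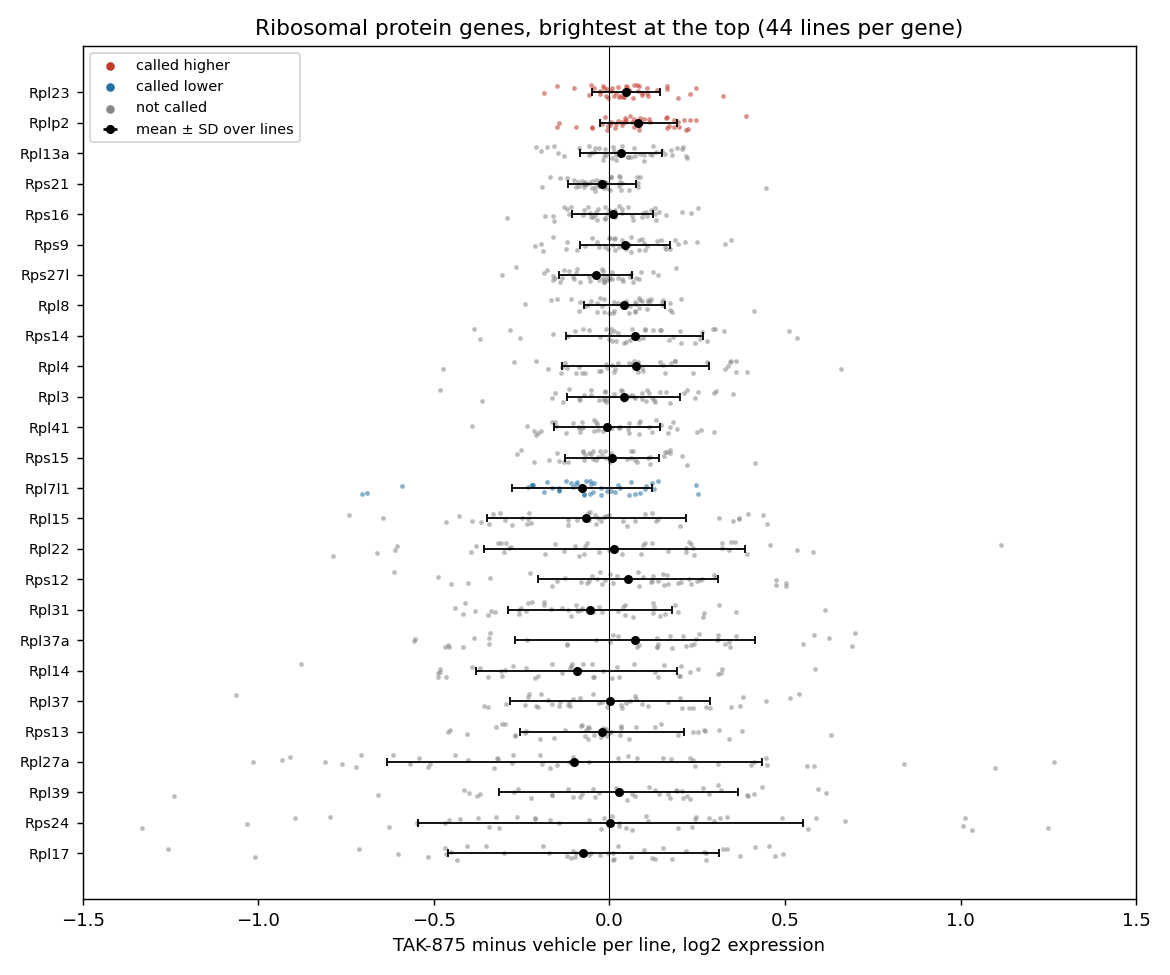
TAK-875 minus vehicle difference (log2) of each ribosomal protein gene in each of 44 lines, brightest gene at the top, with the mean and SD over lines in black. Means of all 26 genes lie within 0.10 of 0, and the spread over lines widens toward the dim genes at the bottom.

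Whether the response differed between lines was tested with a moderated F test on the pair differences. It called 6 of 26 members (23.1%), against 16.2% of all genes. They were Rps14 (adjusted p = 0.00250), Rps24 (0.0191), Rps27l (0.0232), Rps9 (0.0328), Rpl22 (0.0364) and Rplp2 (0.0408). With centred arrays 6 members were called, but Rpl13a and Rps16 took the place of Rps27l and Rps9, and 1870 of all genes were called. With the mean of all probe sets of a gene, 4 were called, without Rpl22 and Rps27l (1485 of all genes). Leaving out CC052/GeniUnc gave 5, without Rplp2 (1372 of all genes). The counts rest on few mice per line. Leaving out strain pair 1, 2, 3 or 4 gave 0, 1, 0 and 4 members (11, 8, 9 and 8 at an unadjusted p under 0.05, against 12 in the full data), while the count over all genes was 240, 138, 129 and 691, against 1474 in the full data. Without CC005/TauUnc and CC041/TauUnc, 2 members remained called, Rps14 and Rps27l, and 345 of all genes were.

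Rps14 had line differences from -0.38 in CC025/GeniUnc to 0.53 in CC052/GeniUnc. Rps24, a small subunit protein mutated in some human cases of Diamond-Blackfan anaemia, had the widest line differences among the 6, from -1.33 to 1.25, at one of the lowest levels on the array. Rpl22, an RNA-binding protein with a paralog that can replace it, had differences from -0.79 to 1.12. Rps9 had -0.21 to 0.35, Rps27l -0.31 to 0.19, and Rplp2 -0.15 to 0.39. All 6 thus had single lines away from 0 in both directions, also Rplp2, whose mean over lines rose. Width alone does not set the 6 apart, since Rpl27a, not called by the F test (adjusted p = 0.240), ran from -1.02 to 1.27.

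Within single lines, 19 of 1144 combinations of a member and a line were called (1.66%), 12 higher and 7 lower, against 1.64% over all genes. These shares are nearly equal, so the count is no result about the members, and the calls are described singly. The calls fell in 11 lines and on 15 members, and CC052/GeniUnc alone held 5. None of the 19 was called in every fit that left out 1 strain pair, although all kept their sign, and 9 were called with centred arrays. The calls were picked from the same arrays whose values are given below. Groups that do not overlap there therefore add no support to a call. The share of such separation over all genes was not computed.

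CC052/GeniUnc had a mean difference over the members of 0.17, with 21 of 26 higher. That was the highest of the lines as deposited, but with centred arrays it was 0.09, below CC019/TauUnc, CC071/TauUnc and CC008/GeniUnc among others. Rplp2 was at 12.07, 11.94, 12.12 and 12.01 in its TAK-875 mice, against 11.63, 11.81, 11.30 and 11.84 in its vehicle mice. Rps14 was at 11.36, 10.96, 11.16 and 11.36 in TAK-875 mice, against 10.45, 10.92, 10.20 and 11.14 in vehicle mice. Each TAK-875 mouse of CC052/GeniUnc was above the vehicle mouse of its own pair in both genes, and in Rplp2 the groups did not overlap. The line's vehicle mean of Rplp2, 11.64, was the lowest of the 44 lines (median 11.91), and its TAK-875 mean was 12.03. Its vehicle mean was also the lowest in Rpl8 (10.96, median 11.22), with a TAK-875 mean of 11.38. In Rps14 the vehicle mean was 10.68, above the lowest line at 10.33. The part of these vehicle levels in the differences was not tested.

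The 5 calls in CC052/GeniUnc were Rplp2 (0.39, adjusted p = 0.000321), Rps14 (0.53, 0.00117), Rpl8 (0.41, 0.00391), Rps15 (0.42, 0.00963) and Rpl31 (0.61, 0.0389). The line called 11.3% of all genes. One of its vehicle arrays, of pair 3, stands apart and was the lowest of the 8 arrays in Rplp2, Rps14, Rpl8, Rps15 and Rpl31. Without that pair the differences were 0.25, 0.39, 0.20, 0.22 and 0.47, none called, the lowest adjusted p being 0.0540. With centred arrays Rps14 kept its call in this line (0.46, adjusted p = 0.0333) and the other 4 lost theirs, with adjusted p-values from 0.0577 to 0.124. The arrays' 90th percentile was 0.10 higher in TAK-875 than in vehicle mice of this line, against 0.03 in CC008/GeniUnc, the line with the next highest mean of the members. Its part in the result was not tested.

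CC005/TauUnc and CC041/TauUnc had opposite patterns in Rpl4, Rps14 and Rps24. In CC005/TauUnc, Rpl4 was at 10.84, 11.10, 10.83 and 10.96 in TAK-875 mice, against 9.78, 10.27, 10.34 and 10.70 in vehicle mice. Rps14 was at 10.96, 10.77, 11.15 and 11.05 in its TAK-875 mice, against 11.57, 11.22, 11.23 and 11.38 in its vehicle mice. Neither gene's groups overlapped in this line, Rpl4 being higher in every TAK-875 mouse and Rps14 lower. Both genes were picked by their calls in this line, so the separation adds no support to the calls. The vehicle mean of this line was the lowest of the 44 lines in Rpl4 (10.27, against a median over lines of 10.81). It was the highest of the 44 in Rps14 (11.35, against a median of 10.88). The TAK-875 means of the line were 10.93 in Rpl4 and 10.98 in Rps14.

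In CC041/TauUnc, Rpl4 was at 10.39, 11.06, 10.35 and 11.02 in TAK-875 mice, against 11.03, 11.40, 11.15 and 11.15 in vehicle mice. Rps14 was at 10.99, 10.77, 10.92 and 10.67 in its TAK-875 mice, against 10.54, 10.05, 10.31 and 10.42 in its vehicle mice. Here Rps14, again picked by its call, was higher in every TAK-875 mouse than in any vehicle mouse. In Rpl4, 1 TAK-875 mouse overlapped the vehicle range. The vehicle mean of Rps14 in this line, 10.33, was the lowest of the 44 lines, and its TAK-875 mean was 10.84. The vehicle mean of Rpl4, 11.18, lay below the highest of the lines, 11.37. The part of these vehicle levels in the differences of both lines was not tested.

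The differences in CC005/TauUnc were 0.66 for Rpl4 (adjusted p = 0.00827), -0.37 for Rps14 (0.0338) and 1.25 for Rps24 (0.0205). Those in CC041/TauUnc were -0.47 for Rpl4 (0.0420), 0.51 for Rps14 (0.00368) and -1.03 for Rps24 (0.0469). CC005/TauUnc called 11.3% of all genes and CC041/TauUnc 15.4%. Array medians differed by 0.13 in CC005/TauUnc and -0.12 in CC041/TauUnc, in the direction of Rpl4 and Rps24 and opposite to Rps14. With centred arrays, Rpl4 and Rps14 kept their calls in CC005/TauUnc (0.53 and -0.50, adjusted p 0.0174 and 0.0166), and Rps14 in CC041/TauUnc (0.63, adjusted p = 0.00218), while Rpl4 there did not (-0.36, adjusted p = 0.0837). Rps24 kept its call in CC005/TauUnc (1.12, adjusted p = 0.0366) and lost it in CC041/TauUnc (-0.91, adjusted p = 0.0693).

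In the other 8 lines with calls, 1 member each was called. Rpl23 in CC029/Unc was at 12.11, 12.22, 12.24 and 12.26 in TAK-875 mice, against 11.84, 11.85, 11.90 and 11.96 in vehicle mice (difference 0.32, adjusted p = 0.0151). Rps27l in CC007/Unc was at 10.79, 10.83, 10.93 and 11.11 in TAK-875 mice, against 11.12, 11.31, 11.31 and 11.14 in vehicle mice (-0.31, adjusted p = 0.00446). In both, the groups did not overlap, which adds no support to calls picked from these same values. Of the 4 fits that left out 1 strain pair, Rpl23 was called in 1 and Rps27l in 2. With centred arrays Rpl23 lost its call (adjusted p = 0.0727) and Rps27l kept it (adjusted p = 0.0213).

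Rps9 in CC008/GeniUnc was at 11.77, 11.82, 12.05 and 11.59 in TAK-875 mice, against 11.56, 11.48, 11.57 and 11.23 in vehicle mice (0.35, adjusted p = 0.0454). Rpl22 in CC039/Unc was at 7.29, 8.84, 7.84 and 7.35 in TAK-875 mice, against 6.92, 6.47, 6.80 and 6.67 in vehicle mice (1.12, adjusted p = 0.0323). Every TAK-875 mouse was above every vehicle mouse in these calls too, which were picked from these same values. Rpl37 in CC065/Unc was lower in each of 3 TAK-875 mice (4.11, 4.64 and 4.26) than in the vehicle mice (5.91, 5.20 and 5.09), with a difference of -1.06 (adjusted p = 0.0219). Single pairs weighed on these last 2 differences: that of Rpl22 was 0.70 without strain pair 2 (adjusted p = 0.293), and that of Rpl37 was -0.70 without strain pair 2 (adjusted p = 0.716). Rps9 was called in 0 of the 4 fits that left out 1 strain pair, Rpl22 in 1 and Rpl37 in 2. CC065/Unc has no strain pair 1, so 1 of the 2 fits that called Rpl37 left out no mouse of that line. With centred arrays Rpl37 kept its call (adjusted p = 0.0190), while Rps9 (0.245) and Rpl22 (0.127) lost theirs.

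In the remaining 3 calls, the difference was much smaller without 1 pair. Rps21 was still called in 3 of the 4 fits that left out 1 strain pair, and Rpl39 in 2. Rpl7l1 was called in 3 as well, but CC053/Unc has no strain pair 4, so 1 of these fits left out no mouse of that line. Rps21 in CC010/GeniUnc was at 10.06, 12.11, 10.18 and 12.21 in TAK-875 mice, against 9.92, 12.22, 10.03 and 10.60 in vehicle mice, so that only pair 4 differed. Its difference was 0.45 (adjusted p = 0.00129), and 0.06 without pair 4, whose TAK-875 array stands apart more than any other. Rpl7l1 in CC053/Unc was at 8.82, 6.96 and 8.84 in TAK-875 mice, against 9.12, 8.75 and 8.87 in vehicle mice (-0.70, adjusted p = 0.0426, and -0.16 without strain pair 2), and all 3 TAK-875 arrays of that line stand apart. Rpl39, a short protein of the exit tunnel, was at 3.70, 3.56, 3.20 and 3.36 in the TAK-875 mice of CC033/GeniUnc, against 4.35, 3.79, 6.15 and 4.50 in its vehicle mice. Its difference there was -1.24 (adjusted p = 0.0304), and -0.67 without pair 3, whose vehicle array is the bright one.

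The lines with the highest means over the 26 members after CC052/GeniUnc were CC008/GeniUnc (0.14) and CC071/TauUnc (0.12), and those with the lowest were CC053/Unc (-0.11), CC033/GeniUnc (-0.11) and CC042/GeniUnc (-0.10). The mean was above 0 in 19 lines and below 0 in 25, or in 22 and 22 with centred arrays, and the mean of the 14 bright members was above 0 in 30 lines. Each of the 3 lowest lines holds arrays that stand apart. The order depended on the scaling. With centred arrays the highest were CC019/TauUnc (0.19), CC071/TauUnc (0.18) and CC008/GeniUnc (0.14), and the lowest CC033/GeniUnc (-0.37), CC065/Unc (-0.22) and CC025/GeniUnc (-0.22), while CC052/GeniUnc was at 0.09, CC053/Unc at -0.13 and CC042/GeniUnc at -0.05.

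**Figure D3:**
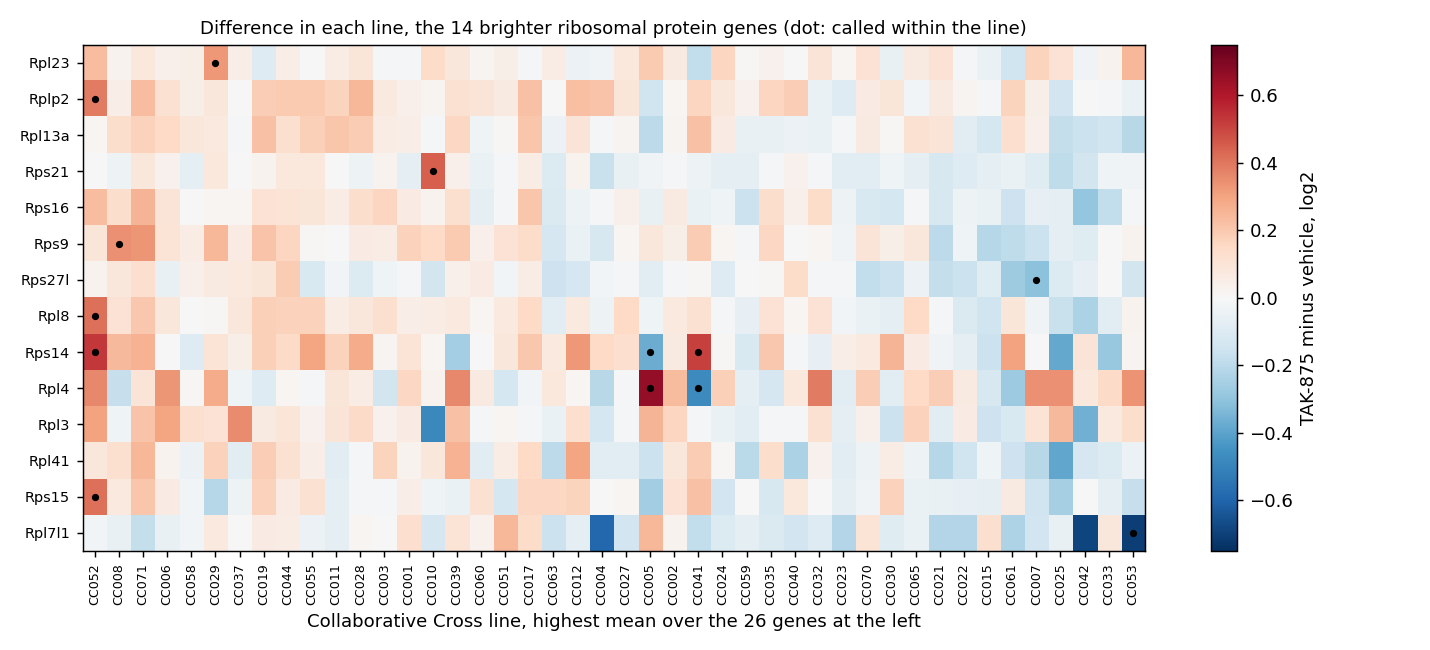
TAK-875 minus vehicle difference (log2, colour) of the 14 brighter ribosomal protein genes in 44 lines, ordered by the mean over all 26 members, with a dot where the gene was called within the line. CC052/GeniUnc at the left is red in most genes, and Rpl4 and Rps14 have opposite colours in CC005/TauUnc and CC041/TauUnc.

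The brighter members did not vary as 1 unit across lines. Over the 91 pairs of the 14 bright members, the correlation of the 44 line differences had a median of 0.26, and 71 pairs were above 0. Rpl8 and Rps16 were most alike (r = 0.79, rho = 0.77), followed by Rpl23 and Rpl4 (r = 0.76, rho = 0.74) and Rplp2 and Rps14 (r = 0.74, rho = 0.68). Leaving out the 2 lines farthest from the median of the first gene gave 0.72, 0.73 and 0.65. With centred arrays the median over the 91 pairs was 0.53, and the correlations of these 3 pairs were 0.88, 0.53 and 0.88.

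Rpl4 and Rps14 were the most opposed, with r = -0.50 and rho = -0.43, and -0.31 without the 2 farthest lines or -0.30 with centred arrays. The signs were the same among the 171 vehicle mice, measured as deviations from their line means. There Rpl23 and Rpl4 had r = 0.74, Rplp2 and Rps14 0.63, and Rpl4 and Rps14 -0.30. Line differences of the array median correlated with those of Rpl4 (r = 0.55, rho = 0.59), Rpl23 (0.45, 0.61) and Rps14 (-0.53, -0.50). These correlations are descriptions over 44 lines that share their arrays, and the part of the array median in them was not tested.

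Without any drug, most members differed between lines, as did nearly all genes. Among vehicle mice, the F test called 24 of 26 members (92.3%), all but Rpl31 and Rpl37a, against 98% of all genes. The SD between lines had a median of 0.24 over the members and 0.29 over all genes. The largest were 1.12 in Rpl3, 0.86 in Rpl14, 0.73 in Rps21 and 0.61 in Rpl41. The SD within lines was 0.18, 0.33, 0.19 and 0.23 in the same genes.

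Rpl3 had 2 separate levels in vehicle mice. Its line means ran from 7.48 to 8.38 in 7 lines, and from 10.57 to 11.14 in the other 37, with no line between. The 7 lines were CC025/GeniUnc, CC023/GeniUnc, CC058/Unc, CC021/Unc, CC037/TauUnc, CC055/TauUnc and CC019/TauUnc. In TAK-875 mice the same 7 lines ran from 7.60 to 8.45, and the others from 10.28 to 11.21. Single mice of the 7 lines lay between 6.83 and 8.63 after TAK-875, and between 6.96 and 8.66 after vehicle.

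Outside those 7 lines, 1 mouse had a level of Rpl3 near the low range. The TAK-875 mice of CC010/GeniUnc were at 10.83, 10.74, 10.90 and 8.64, against 10.78, 10.75, 10.84 and 10.66 in its vehicle mice. The low value belongs to pair 4, the same array as in Rps21 above.

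Rps21 also had separate levels, in a different set of lines. Its vehicle line means ran from 10.02 to 10.69 in 7 lines and from 12.05 to 12.33 in the other 37. The lines were CC053/Unc, CC025/GeniUnc, CC061/GeniUnc, CC021/Unc, CC024/GeniUnc, CC070/TauUnc and CC010/GeniUnc, of which CC021/Unc and CC025/GeniUnc also had low Rpl3. In TAK-875 mice the same lines ran from 9.89 to 11.14 and the others from 12.05 to 12.35. CC010/GeniUnc held both levels: pair 2 was high in both mice, at 12.11 after TAK-875 and 12.22 after vehicle, while pairs 1 and 3 were low in both.

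Rpl14 had vehicle line means from 3.32 to 4.12 in 17 lines and from 4.77 to 5.80 in 27. In TAK-875 mice the 17 lines ran from 3.24 to 4.01 and the 27 from 4.75 to 5.63, so no line changed sides. Rpl41 ran from 8.85 in CC001/Unc to 10.85 in CC004/TauUnc, and in CC025/GeniUnc single vehicle mice were at 10.27, 8.99, 10.23 and 9.02, against 9.44, 9.06, 9.74 and 8.71 after TAK-875. A sequence difference under a probe and a different amount of transcript would both change such a level, and the part of either was not tested.

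**Figure D4:**
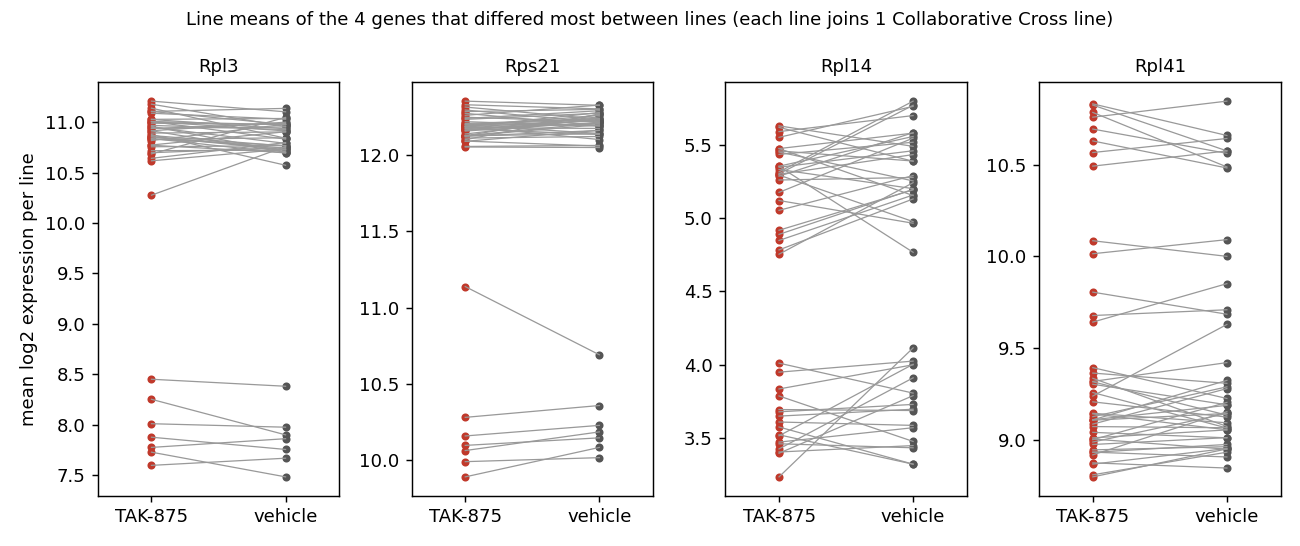
Mean log2 expression of Rpl3, Rps21, Rpl14 and Rpl41 per line in TAK-875 and vehicle mice, with a grey line joining the 2 values of each of 44 lines. Lines at the low level of Rpl3 and Rps21 stay low under both treatments, and CC010/GeniUnc lies between the levels of Rps21.

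Other mRNAs of the translation machinery were taken from 3 lists. Of 18 measured translation factors and other TOP mRNAs, 5 rose (27.8%) and 1 fell, with a median difference of 0.05, against 15.3% risen and a median of 0.0056 over all genes. Nap1l1, a histone chaperone, ran from 3.96 through 7.21 to 8.58 in TAK-875 mice, against 3.37, 6.99 and 8.05 in vehicle mice. Nap1l1 rose by 0.23 ± 0.37 (SD, n = 44 lines, limma adjusted p = 0.000790). Eef1d, which recharges the elongation factor eEF1A, rose by 0.12 ± 0.14 (adjusted p = 2.11e-05), and Eif3k, a subunit of the initiation factor eIF3, by 0.11 ± 0.16 (adjusted p = 0.000507). Vim, an intermediate filament gene of mesenchymal cells and leukocytes, fell by 0.12 ± 0.27 (adjusted p = 0.0177). With centred arrays 3 of the 18 rose and 2 fell, with a median of 0.04, against 26.2% of all genes called.

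Of 52 measured ribosome biogenesis factors, 17 rose (32.7%) and 0 fell in limma's test, or 24 and 0 at an unadjusted p under 0.05. Over all genes, 15.3% rose and 11.9% fell, or 20.4% and 16.4% at the unadjusted threshold. The median difference of the 52 factors was 0.08, and 44 lay above 0. Ftsj3, which methylates ribosomal RNA, ran from 4.18 through 5.59 to 6.72 in TAK-875 mice, against 3.33, 5.46 and 6.30 in vehicle mice. It rose by 0.16 ± 0.29 (SD, n = 44 lines, adjusted p = 0.00425). Rrp1b rose by 0.16 ± 0.37 (adjusted p = 0.0257), Rrp12, which acts in export of the pre-ribosome, by 0.15 ± 0.24 (adjusted p = 0.00160), and the nucleolar Nolc1 by 0.15 ± 0.35 (adjusted p = 0.0276).

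The count of biogenesis factors depended on a part of the mice. Without strain pair 4 it was 3 risen of 52, Nhp2, Bysl and Polr1d, with a median of 0.05 and 41 factors above 0. In that fit 21.2% of all genes were called. Without the pairs that stand apart, 9 rose and 1, Noc4l, fell, with a median of 0.05, against 26.4% of all genes called. With centred arrays 10 of 52 rose and the median was 0.06, against 26.2% of all genes called. Across lines, the mean difference of these factors and that of the ribosomal protein genes had r = -0.20 and rho = -0.18 (44 lines, a description), and r was 0.06 with centred arrays.

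Of 23 measured mTORC1 components and regulators of TOP mRNAs, 3 rose (13%) and 2 fell (8.7%), with a median of 0.0065. Over all genes 15.3% rose and 11.9% fell, so these shares are no result about the list, and its 4 genes named here are described singly. Myc, a transcription factor that drives ribosome genes, ran from 3.98 through 5.30 to 9.31 in TAK-875 mice, against 3.81, 5.22 and 7.56 in vehicle mice. It rose by 0.27 ± 0.50 (SD, n = 44 lines, adjusted p = 0.00341). Mtor, the kinase itself, rose by 0.13 ± 0.15 (adjusted p = 4.53e-05). Mycn fell by 0.17 ± 0.33 (adjusted p = 0.00547), and Lamtor2, of the lysosomal anchor of mTORC1, fell by 0.11 ± 0.15 (adjusted p = 0.000153).

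**Figure D5:**
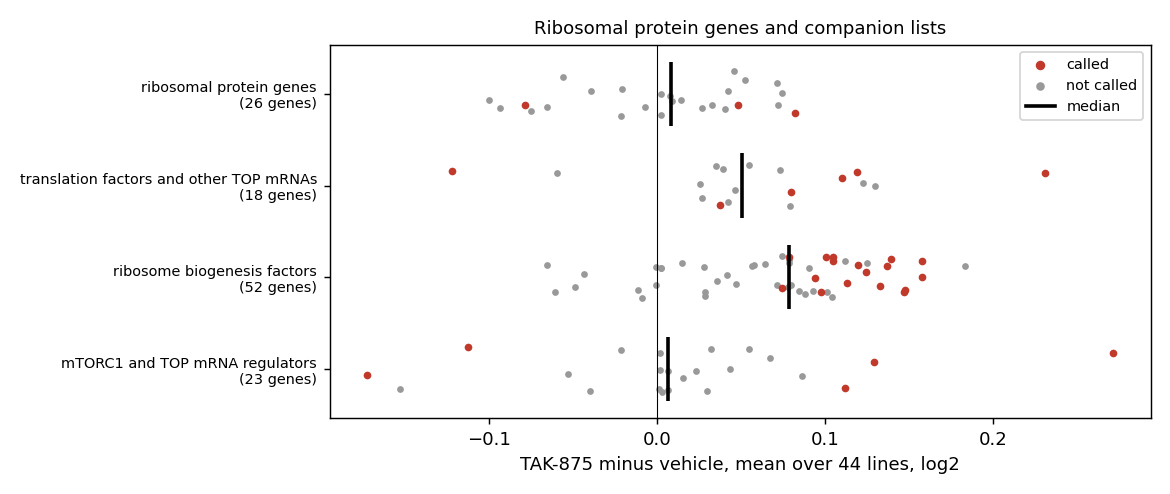
Mean TAK-875 minus vehicle difference over 44 lines (log2) of 26 ribosomal protein genes and the measured genes of 3 companion lists, called genes in red and the list median as a bar. The medians are 0.0085, 0.05, 0.08 and 0.0065 from top to bottom.

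Markers of other cell types were read beside the members. Over all genes, 15.3% rose and 11.9% fell, or 20.4% and 16.4% at an unadjusted p under 0.05. Kupffer cells and other macrophages had 13 measured markers, of which 11 fell (84.6%) and 0 rose in limma's adjusted test, with a median of -0.21. The counts were the same at an unadjusted p under 0.05. The mean level of these markers per array lay between 5.18 and 8.02 in TAK-875 mice and between 6.01 and 8.58 in vehicle mice. Of 14 endothelial markers 5 fell (35.7%), with mean levels of 5.77 to 6.88 in TAK-875 mice and 5.83 to 7.39 in vehicle mice. Of 9 stellate cell and fibroblast markers 3 fell (33.3%), with mean levels of 5.57 to 7.01 in TAK-875 mice and 5.52 to 7.26 in vehicle mice. Of 3 red blood cell markers 2 fell (4.55 to 6.93 in TAK-875 mice and 4.14 to 7.22 in vehicle mice). Of 3 B cell markers 1 rose and 1 fell (3.70 to 5.13 in TAK-875 mice and 3.72 to 5.56 in vehicle mice). Lists of 3 markers are too short to set a share beside that of all genes. No marker passed limma's test, nor had an unadjusted p under 0.05, among 6 of neutrophils, 2 of cholangiocytes and 1 of T and NK cells. Of 11 hepatocyte markers, 3 rose (27.3%) and 2 fell (18.2%), with mean levels of 12.20 to 12.82 in TAK-875 mice and 12.09 to 12.78 in vehicle mice. Every cell type carries ribosomal protein mRNAs, and the part of these shifts in the members' values was not tested.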

How the data were processed

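Total liver RNA of 342 mice was measured on Affymetrix HT MG-430 PM arrays, per the labels. The deposited log2 values per probe set are the authors' RMA output; the submitters' processing notes name Affymetrix Power Tools without a version. Scanner files were not used, so detection was not assessed.

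Of 16397 probe sets, 13083 name 1 gene, 261 several and 3053 none in the platform table. Each of 9093 genes was represented by its brightest single-gene probe set. Members and gene lists were chosen with earlier results of these data known, so no set test was run. Differences, TAK-875 minus vehicle, were taken per study pair and averaged per line, the unit of the test, since mice within a line are genetically alike. limma 3.58.1 in R 4.3.3 (eBayes, variance trended on mean level) tested the 44 line values against 0 and, by F test, 171 pair differences for equality between lines (127 residual degrees of freedom) and vehicle levels likewise. P-values were Benjamini-Hochberg adjusted over all genes at 0.05, and the code was tested on simulated data.

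Named genes were called members, the 4 with the largest spread of response among those called by the F test, the 4 with the largest vehicle spread, stalk and variant-like genes with their paralogs, the 3 brightest and 3 dimmest, and up to 4 called genes of each list; other names were chosen after their values were seen. Labels say mice were treated in pairs. Deviations of paired arrays correlated by 0.0361 on average, against -0.0117 for other pairs of a line, and 60 of 171 pairs exceeded 0.1. The highest correlation between 2 arrays was 0.990, so none was taken as deposited again. Alternatives were other probe set choices, other scalings, a filter on dim genes, and leaving out arrays, lines or strain pairs. Further fits took study pairs, or single mice with no pair block, as the unit in place of lines. Summaries used Python 3.11.15, pandas 2.3.3, numpy 2.4.6 and matplotlib 3.10.9.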

Additional observations from a re-analysis of the deposited data

Results flagged for a closer look

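The response of 6 ribosomal protein genes differed between the 44 lines in the moderated F test, each adjusted over all genes, against 16.2% of all genes tested. Leaving out strain pair 1 or 3 left 0 members called by limma, with 11 and 9 at an unadjusted p under 0.05. The adjusted p was 0.00250 for Rps14, 0.0191 for Rps24, 0.0232 for Rps27l, 0.0328 for Rps9, 0.0364 for Rpl22 and 0.0408 for Rplp2. Of these, Rps27l and Rps9 lost their calls with centred arrays, and Rpl22 and Rps27l with the mean of all probe sets. Rplp2 lost its call without CC052/GeniUnc. The test itself compares the lines, so it does not depend on a gene passing in 1 line and missing in another. Rps24 and Rpl22 stand at mean levels of 3.23 and 7.04, where single lines spread widely, while the other 4 are among the bright members.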

How the results depend on the processing

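The count of members called on the mean over lines was 3 in the fit reported. It was 1 with the mean of all probe sets, 1 of 11 with plain-class probe sets, 5 with quantile normalization again, 5 without pairs that stand apart, 9 with the study pair as a replicate block, 8 with no replicate block, 5 without CC005/TauUnc and CC041/TauUnc (an alternative chosen after seeing the data, as were leaving out CC052/GeniUnc and centring on the 90th percentile), and 3 to 4 without each strain pair. Other TOP mRNAs called were 11 with the replicate block and 11 with no replicate block, against 6, and 6 to 7 without each strain pair. Biogenesis factors called were 10 with centred arrays and 10 without pairs that stand apart, against 17, and 3 to 17 without each strain pair. mTORC1 genes called were 3 to 6 without each strain pair, against 5. Members called by the F test between lines were 1 with plain-class probe sets and 2 without CC005/TauUnc and CC041/TauUnc, against 6, and 0 to 4 without each strain pair. In vehicle mice, all 11 members with plain-class probe sets were called, and 22 to 23 of 26 without each strain pair. Calls within lines were 4 with plain-class probe sets, against 19, and 9 to 17 without each strain pair. The median member difference lay between -0.0037 and 0.03 without each strain pair. Fewer genes are tested with plain-class probe sets, and fewer mice in the leave-outs. The fits with and without the replicate block have another unit than the line. Other causes were not tested.

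Of 227 alternative values of the 15 named members, 186 kept direction and call. Signs turned in members near 0 and in Rpl7l1: Rpl22 was -0.00048 with centred arrays, -0.0014 with quantile normalization again and -0.016 to 0.038 without each strain pair. Rpl39 was -0.017 to 0.068 and Rpl41 -0.030 to 0.024 without each strain pair, and Rpl41 was 0.032 when the probe sets were averaged and 0.056 with plain-class ones. Rpl7l1 was 0.0040 with the mean of all probe sets. Rps24 was -0.012 with centred arrays, -0.00032 with quantile normalization again, -0.046 without pairs that stand apart, -0.0075 with the replicate block or without it, -0.0087 with arrays centred on the 90th percentile, -0.0023 without CC005/TauUnc and CC041/TauUnc, and -0.055 to 0.070 without each strain pair. Signal over background was not used, so the dim members may hold little signal of their own.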
